A study of Mus musculus with 7 samples.

Results

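The forkhead box O genes Foxo1, Foxo3 and Foxo4 and 6 genes known as FoxO targets (Ccng2, Sesn1, Sesn3, Irs2, Bcl6 and Cited2) were examined in LSK cells of mouse bone marrow soon after loss of the kinase gene Lkb1 (Stk11). The 9 genes were taken by name, and every probe set (a group of probes for a transcript) whose single gene symbol is one of them was taken, giving 19 probe sets for 9 of 12394 genes measured. LSK cells lack lineage markers and have Sca-1 and c-Kit on their surface. Blood stem cells and early progenitors fall within this gate. The 4 Lkb1 KO samples (numbers 4 to 7) came from Lkb1 L/L mice with rosa26CreERT2, in which tamoxifen switches on a Cre made from Rosa26, a locus active in nearly all tissues. The 3 Lkb1 WT samples (numbers 5 to 7) came from Lkb1 L/L mice without Cre, so the floxed alleles were shared by both groups and Cre was present in the KO mice alone. All mice were adult, their strain was C57BL/Ka-CD45.2:Thy-1.1, all received tamoxifen for 5 days, and cells were sorted 1 day after the last dose, 15000 to 20000 per sample. About 10 ng of RNA per sample was amplified and hybridised to 1 array. The labels do not state that each sample was a separate animal, so the p-values rest on the scatter among samples that could be technical replicates.

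FoxO proteins are transcription factors at the end of the insulin and growth factor pathway. When PI3K and AKT are active, AKT phosphorylates FoxO proteins, which are then bound by 14-3-3 proteins and kept out of the nucleus. When that input is low, FoxO proteins enter the nucleus and switch on genes of cell cycle arrest, stress resistance, autophagy and insulin sensitivity. In mouse blood, joint deletion of Foxo1, Foxo3 and Foxo4 is known to drive stem cells out of quiescence. AMPK, the best known substrate of LKB1, can phosphorylate FoxO3. The arrays measured transcript levels and hold no measure of where FoxO proteins were in the cell.

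Of the 8 members with enough signal to be tested, the cofactor gene Cited2, the cyclin gene Ccng2 and the repressor gene Bcl6 fell in Lkb1 KO samples, to ratios of 0.633, 0.645 and 0.598 of the WT level on the log2(signal + 16) scale. None rose. Foxo1, Foxo3, Sesn1 and Sesn3 had differences of -0.29 to -0.37 log2 units, and Foxo4 had 0.50, none of them past the threshold. Irs2 had too little signal to be tested. Each of these differences is relative to the other genes on the array, because the deposited signals were brighter overall in KO.

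Promoter windows are shown for the 3 members that fell, and for Sesn1, the member whose window holds the classical forkhead word. The windows come from RefSeq (build GRCm38.p6), run from 250 bases before to 50 bases after the annotated transcription start, and are written 5′ to 3′ on the strand of the gene. Capitals mark matches on either strand to GTAAACA, the classical FoxO-binding word, to its variant GCAAACA, or to CAAAACAA, the insulin response word. The words were chosen after the windows had been seen. Bcl6 and Sesn1 each have another annotated start, and the first of their windows in the table is shown.
Ccng2 (chr5:93267323-93267622, plus strand): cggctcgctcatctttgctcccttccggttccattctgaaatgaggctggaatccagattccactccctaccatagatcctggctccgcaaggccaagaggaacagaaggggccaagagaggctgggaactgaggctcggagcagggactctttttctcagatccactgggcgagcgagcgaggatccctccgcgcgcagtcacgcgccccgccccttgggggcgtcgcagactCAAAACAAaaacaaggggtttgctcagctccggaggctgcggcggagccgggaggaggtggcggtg
Cited2 (chr10:17722978-17723277, plus strand): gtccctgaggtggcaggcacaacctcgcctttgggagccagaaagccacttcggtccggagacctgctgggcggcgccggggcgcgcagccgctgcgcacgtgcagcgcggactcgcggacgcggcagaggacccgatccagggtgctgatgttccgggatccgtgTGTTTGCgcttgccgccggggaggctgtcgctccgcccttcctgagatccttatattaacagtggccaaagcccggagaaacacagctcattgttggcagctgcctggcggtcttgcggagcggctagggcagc
Bcl6 (chr16:23988803-23989102, minus strand): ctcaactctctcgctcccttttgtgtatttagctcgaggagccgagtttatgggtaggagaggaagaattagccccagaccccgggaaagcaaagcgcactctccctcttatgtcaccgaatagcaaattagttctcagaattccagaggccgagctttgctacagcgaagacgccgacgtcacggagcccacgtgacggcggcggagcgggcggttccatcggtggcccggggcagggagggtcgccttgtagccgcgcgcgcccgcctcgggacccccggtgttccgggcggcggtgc
Sesn1 (chr10:41810324-41810623, plus strand): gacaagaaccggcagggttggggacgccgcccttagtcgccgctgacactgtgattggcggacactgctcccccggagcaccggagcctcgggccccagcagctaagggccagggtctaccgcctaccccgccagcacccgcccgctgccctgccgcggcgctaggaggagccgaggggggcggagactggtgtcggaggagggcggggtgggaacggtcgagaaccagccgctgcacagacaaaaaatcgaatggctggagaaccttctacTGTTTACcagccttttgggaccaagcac

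The Ccng2 window holds CAAAACAA beginning 16 bases before the start. The Cited2 window holds the reverse complement of GCAAACA beginning 84 bases before the start. The Sesn1 window holds the reverse complement of GTAAACA from the base numbered 23 of the transcript. The Irs2 window, not printed, holds the reverse complement of CAAAACAA beginning 38 bases before its start. No match was found in either Bcl6 window, in the other Sesn1 window or in the windows of Foxo1, Foxo3 and Sesn3. RefSeq windows were matched for 8 of the 9 members, the exception being Foxo4. At least 1 word was present in 4 of the 10 member windows, against 10.7% of all 32851 windows of the same length. Because the words were chosen after the windows had been seen, this comparison is no test of enrichment. GTAAACA was present in 3.65% of all windows, GCAAACA in 5.07% and CAAAACAA in 2.51%, either strand counted. A match is a description of letters and does not show that a factor binds there.

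The arrays differed in brightness, with trimmed mean signals of 360.4 to 425.9 in KO and 228.6 to 340.5 in WT (two-sided exact permutation p = 0.0286, the smallest that 4 against 3 samples allow). The values below were therefore quantile-normalised across the 7 arrays and analysed as log2(signal + 16), a scale that understates changes of dim genes. Of the 8077 genes that entered the fit, 199 were called higher in KO and 238 lower at a limma adjusted p under 0.05 (Benjamini-Hochberg), so that 45.5% of calls were higher. With any 1 sample left out these counts were 8 to 74 and 34 to 113. The share was 97.0% with the signals as deposited, where the median gene was 0.34 log2 units higher in KO, and 76.7% after centring each array on its median. The Actb control probe sets had a 3′ over 5′ ratio, which reflects RNA length, of 11.4 to 12.3 in KO samples against 12.6 to 13.1 in WT samples, without overlap (p = 0.0571, exact permutation). Stk11 itself had deposited signals of 162.5, 123.4, 91.2 and 74.1 in KO 4 to 7, against 187.3, 115.2 and 99.3 in WT 5 to 7 in its brighter probe set. A second probe set, above background on 4 of 7 arrays, had 38.3, 57.9, 28.5 and 5.9 in KO against 3.4, 5.1 and 19.4 in WT. The values of the brighter one overlapped, at a normalised difference of -0.56 (limma adjusted p = 0.117), and since the position of the probes relative to the deleted part is unknown, Stk11 is no check of the labels. The 5 LSK marker genes measured, Kit, Cd34, Flt3, Cd48 and Procr, were above background on every array.

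Among the FoxO genes themselves, none passed the threshold in either direction, though Foxo3 did under a trended robust prior (limma adjusted p = 0.0289). Foxo3, the member best known for its part in adult blood stem cells of the mouse, had normalised signals of 2296, 2516, 2440 and 2378 in KO 4 to 7. In WT 5 to 7 it had 2676, 3053 and 3142. Every KO array lay below every WT array, but the difference of -0.29 ± 0.09 (SE) log2 units did not pass (limma adjusted p = 0.101). A dimmer Foxo3 probe set gave -0.40 with groups that did not overlap, and the dimmest, below the filter, gave 0.19 with groups that did. In the signals as deposited the brightest Foxo3 probe set overlapped, at 2462 to 2869 in KO and 2065 to 2894 in WT, a difference of 0.09.

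Foxo1, which in lymphocytes controls homing and receptor genes, had normalised signals of 462.0, 416.8, 489.3 and 316.6 in KO 4 to 7. In WT 5 to 7 it had 570.9, 541.7 and 518.0. The groups did not overlap, KO 7 stood lowest, and the difference was -0.37 ± 0.15 (SE) log2 units (limma adjusted p = 0.162). Its 4 probe sets did not move alike: another bright one was at -0.32, the next was at 0.09 with overlapping groups, and the dimmest was above background in KO 4 alone. With the signals as deposited the brightest was at 0.04. The Foxo1 difference was -0.25 without KO 7, -0.22 after median centring, -0.20 with its probe sets averaged and -0.14 with the Actb ratio as a covariate.

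Foxo4, the X-linked member, was the only one of the 8 that was higher in KO by value. It was dim, with normalised signals of 64.2, 34.1, 41.4 and 32.1 in KO 4 to 7 and of 24.6, 26.7 and 23.3 in WT 5 to 7. All KO arrays lay above all WT arrays, and KO 4 stood well above the other KO arrays. The difference of 0.50 ± 0.17 (SE) log2 units did not pass (limma adjusted p = 0.124), while with the signals as deposited it did (0.67, limma adjusted p = 0.0393). It was 0.26 with a pseudocount of 64, 0.15 with the Actb ratio as a covariate and 0.34 without KO 4, and passed in none of these fits. Foxo4 and Foxo3 signals come from different probes and cannot be set against each other as levels. Foxo6, the remaining family gene, was listed but was not among the genes tested.

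**Figure D1:**
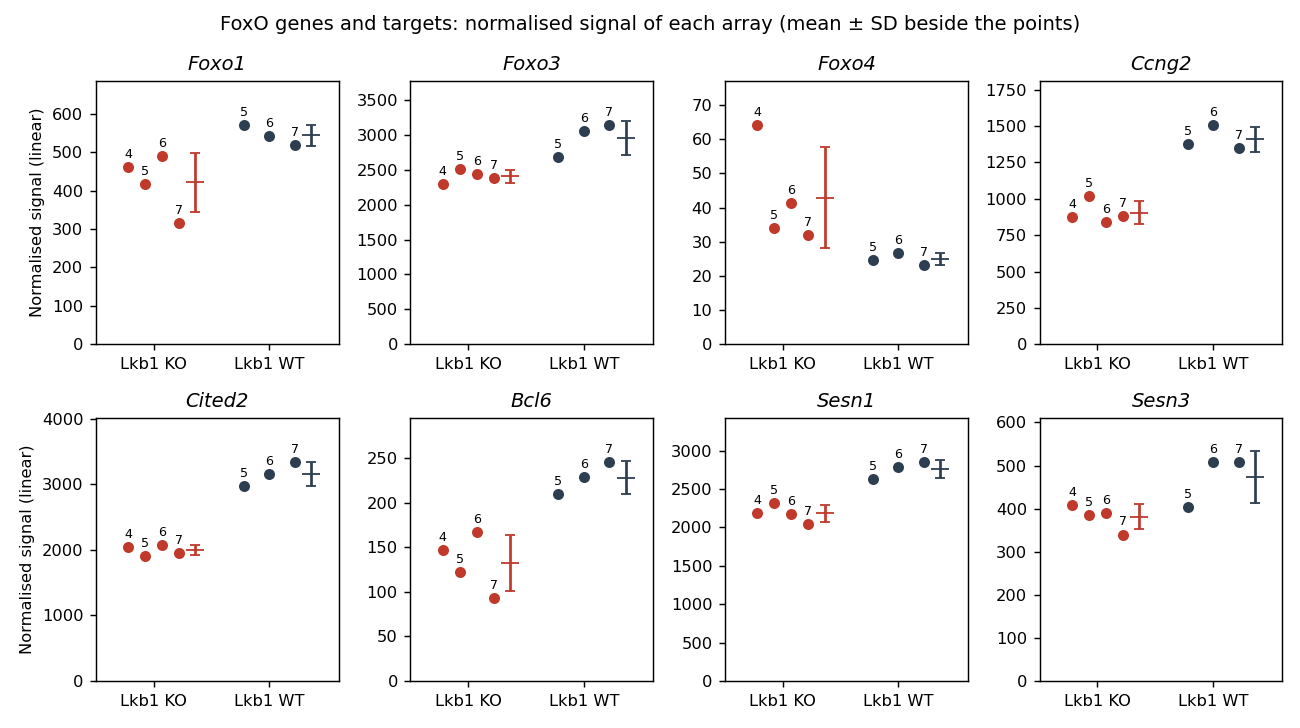
Normalised linear signal of each array for the brightest probe set of the 8 tested members, with Lkb1 KO samples 4 to 7 on the left and Lkb1 WT samples 5 to 7 on the right of each panel, and the group mean ± SD beside the points. In the panels of Foxo1, Foxo3, Ccng2, Cited2, Bcl6 and Sesn1 every KO array lies below every WT array. Foxo4 is the panel in which KO lies above WT, and Sesn3 is the one in which the groups overlap.

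The clearest fall was in Cited2, which encodes a cofactor that binds CBP and p300, limits HIF-1 activity and is needed to maintain blood stem cells in mice. Its normalised signals were 2039, 1909, 2069 and 1951 in KO 4 to 7. In WT 5 to 7 they were 2977, 3158 and 3346. The lowest WT array stood well above the highest KO array, and the difference was -0.66 ± 0.09 (SE) log2 units (limma adjusted p = 0.0136; exact permutation p = 0.0286, the smallest possible). A second, dimmer probe set gave -0.65 without overlap, and did not pass in a fit over all 13575 probe sets past the filter (limma adjusted p = 0.127), where the brighter one did (limma adjusted p = 0.0189). In that fit 1.94% of probe sets were lower and 2.08% higher, and 10.9% were lower without overlap. The deposited signals of the brighter one were 2530.5, 2187.7, 2178.1 and 2032.9 in KO and 2886.8, 2964.2 and 2204.3 in WT. Those values overlap only through WT 7, the dimmest array.

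Ccng2 encodes cyclin G2, an unusual cyclin that is raised in cells leaving the cycle and is a direct FoxO target. Its normalised signals were 874.0, 1020, 843.5 and 882.2 in KO 4 to 7. In WT 5 to 7 they were 1376, 1508 and 1347. Again no KO array reached the lowest WT array, and the difference was -0.63 ± 0.10 (SE) log2 units (limma adjusted p = 0.0213; exact permutation p = 0.0286). A second probe set, below the filter, gave the same -0.63, also without overlap after normalization. It was near the background level of 13.64, with deposited signals of 21.1, 18.3, 20.4 and 9.7 in KO 4 to 7. In WT 5 to 7 it had 48.5, 33.8 and 15.3, so that its deposited values overlapped. The deposited signals of the brighter probe set were 1086.2, 1175.7, 892.8 and 922.4 in KO and 1343.1, 1359 and 873.4 in WT. There WT 7 lay below all 4 KO arrays before normalization.

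Bcl6 encodes a transcriptional repressor of germinal centre B cells that FoxO factors are known to induce. Its normalised signals were 146.7, 122.4, 167.4 and 93.3 in KO 4 to 7. In WT 5 to 7 they were 209.6, 228.9 and 246.3. The groups did not overlap, KO arrays spread more widely than WT arrays, and KO 7 stood lowest. The difference of -0.74 ± 0.17 (SE) log2 units was the lowest value among the 8 members and passed narrowly (limma adjusted p = 0.0466; exact permutation p = 0.0571). In the fit over all probe sets it missed the threshold (limma adjusted p = 0.0569). Another Bcl6 probe set, below the filter, was at 0.04 with overlapping groups.

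These 3 genes make 3 of 8 tested members lower, where 2.95% of all tested genes were lower and 2.46% higher by the same rule. The members were chosen with earlier results of these data known, so this comparison is no test of enrichment. In the bulk samples measured, fewer cells of a type that carries a transcript and less of that transcript per cell cannot be told apart. Leaving out 1 sample changed the count. All 3 passed without KO 6, Cited2 and Ccng2 passed without KO 5, Cited2 alone passed without KO 4, WT 5, WT 6 or WT 7, and none passed without KO 7, where Cited2 was at -0.65 (limma adjusted p = 0.0510). With the signals as deposited none of the 3 passed, at -0.26 for Cited2, -0.20 for Ccng2 and -0.38 for Bcl6, against the median gene at 0.34. With the Actb ratio as a covariate none passed either, with Cited2 at -0.68, Ccng2 at -0.65 and Bcl6 at -0.51.

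Marker genes of other cells differed between the groups as well. All 6 mature granulocyte markers (Ltf, Lcn2, Camp, Ngp, S100a8 and S100a9) fell, with summed normalised signals of 8505 to 12014 in KO and 25535 to 34899 in WT, and none was at background. The summed signal of the 3 measured erythroid markers was 184.7 to 209.1 in KO samples, against 290.8 to 329.3 in WT samples, with Ermap past the threshold. The sum of the 4 stroma markers lay between 197.3 and 312.6 in KO samples and between 348.0 and 586.8 in WT samples, of which Col1a2 alone was above background on every array. The sum of the 3 measured B cell markers overlapped, at 327.3 to 363.0 in KO and 333.0 to 408.8 in WT, with Cd79a and Pax5 above background on no array. The 4 T cell markers summed to 30.2 to 49.6 in KO and 27.7 to 36.3 in WT, and none was above background on every array, 2 of them on none. The summed LSK markers were 9595 to 10151 in KO and 10358 to 11020 in WT, where Cd48 rose and Kit fell, Kit being at 0.01 with the signals as deposited. The part of these other cells in the values of Cited2, Ccng2 and Bcl6 was not tested.

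**Figure D2:**
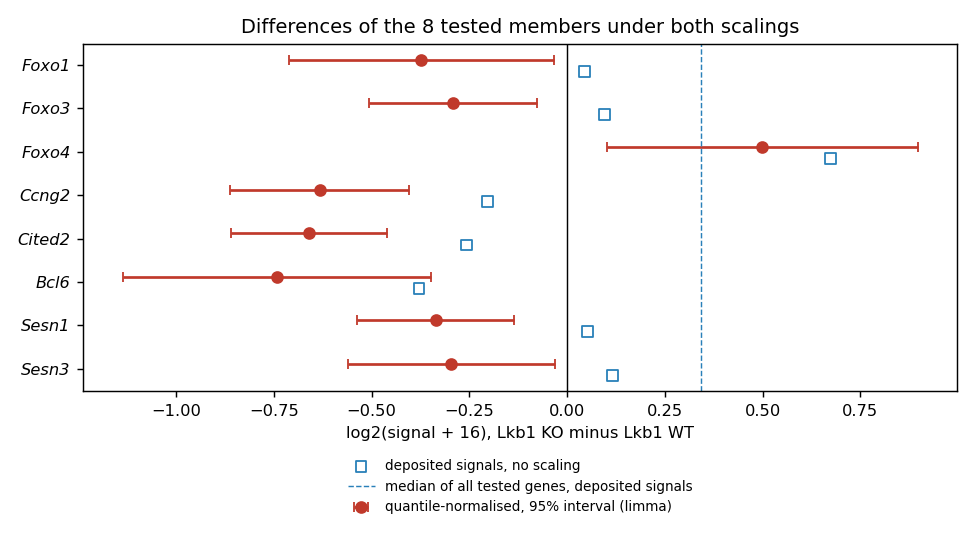
Log2 differences, Lkb1 KO minus Lkb1 WT, of the 8 tested members. Filled circles with 95% intervals from limma are quantile-normalised values, open squares are the signals as deposited, and the dashed line at 0.34 is the median of all tested genes with the signals as deposited. Every member but Foxo4 lies to the left of the dashed line under the deposited scaling.

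The sestrins restrain mTORC1 under stress and amino acid shortage, and Sesn1 and Sesn3 are FoxO targets. Sesn1 had normalised signals of 2188, 2322, 2178 and 2040 in KO 4 to 7. In WT 5 to 7 it had 2633, 2783 and 2856. No KO array reached the WT range, and the difference of -0.34 ± 0.09 (SE) log2 units lay just short of the threshold (limma adjusted p = 0.0615). Sesn1 passed in 3 of 12 alternatives and in none of the 7 fits without 1 sample. Its other probe sets gave -0.31 and -0.45, both without overlap. With the signals as deposited the brightest was at 0.05. Sesn3 had normalised signals of 409.1, 386.2, 389.4 and 339.9 in KO 4 to 7 and of 403.6, 507.8 and 509.2 in WT 5 to 7. The groups overlapped through WT 5, and the difference was -0.30 ± 0.12 (SE) log2 units (limma adjusted p = 0.157; 0.12 with the signals as deposited). The related gene Sesn2 was at 0.12 ± 0.29 (SE) (limma adjusted p = 0.832).

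Irs2 encodes the adaptor that links the insulin receptor to PI3K and is induced by FoxO factors in liver. Its 1 probe set had deposited signals of 3, 2.5, 17.3 and 3.1 in KO 4 to 7, against 2.8, 2.5 and 2.5 in WT 5 to 7. Only KO 6 exceeded the background level of 13.64, the 95th percentile of 27 control probe sets for bacterial transcripts. It lay below the filter, and no difference is given for it.

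Across the members, 7 of 8 differences lay below 0, where 52.4% of all tested genes did, with a median of -0.35 for the members and -0.02 for all tested genes. With the signals as deposited, the member median was 0.05 and that of all tested genes 0.34. For 6 members every KO value was below every WT value and for 1 every KO value was above, where 12.7% of all tested genes were lower and 11.4% higher without overlap. As the members were chosen with earlier results of these data known, these shares are no test of the members as a set. Among the 19 probe sets 14 passed the filter, and 12 of these lay below 0, the exceptions being the Foxo4 probe set and 1 of Foxo1. Among KO samples, KO 7 was lowest of all 7 arrays for 4 of the 7 members with a negative difference. Relative to the WT mean, the median of the 8 members was -0.56 log2 units in KO 7, against -0.34 in KO 4, -0.32 in KO 5 and -0.30 in KO 6.

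**Figure D3:**
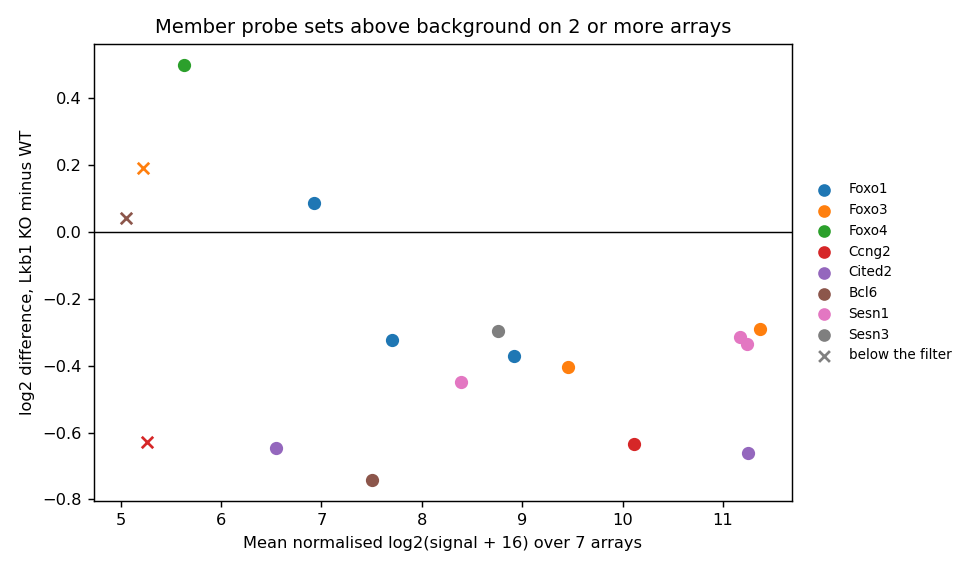
Log2 difference, Lkb1 KO minus Lkb1 WT, against the mean normalised log2 level over 7 arrays for the 17 member probe sets above background on 2 or more arrays, which leaves out Irs2 and the dimmest of Foxo1. Crosses mark the 3 below the filter. Of the 14 past the filter, 12 lie below 0, and 2 of the 3 crosses lie above 0.

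The tested gene whose pattern over the 7 arrays was most like that of Cited2, the member of lowest p, was Tm9sf3 (Pearson r = 0.986), followed by Supt20 (r = 0.986), Avl9 (r = 0.985), Pnn (r = 0.981) and Pcmtd2 (r = 0.980). The 7 points share the difference between genotypes, and 285 of 8075 genes reached an r of 0.9. Of these 5 genes Pcmtd2, Avl9 and Supt20 fell, at -0.82, -0.52 and -0.39 log2 units. Without 1 sample Pcmtd2 passed in 7 of 7 fits, Avl9 in 1 and Supt20 in 0, and averaging its probe sets put Supt20 at -0.08 (limma adjusted p = 0.656). Tm9sf3 was at only -0.15 (limma adjusted p = 0.265).

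Around the members, 9 lists of other genes of the FoxO pathway held 95 tested genes, of which 1 rose and 7 fell, where 2.46% of all tested genes rose and 2.95% fell. With any 1 sample left out 2 to 4 of them fell, and without KO 7 none rose. Their median was -0.08 log2 units, or 0.23 with the signals as deposited. The lists were also chosen with earlier results of these data known, so these counts are no test of enrichment. On the input side, 1 of 17 genes of insulin and PI3K-AKT signalling fell and none rose, with a median of -0.08. It was Phlpp1, a phosphatase that removes an activating phosphate from AKT, at -0.42 ± 0.09 (SE) log2 units (limma adjusted p = 0.0413). Phlpp1 passed in none of the 7 fits without 1 sample. It also missed the threshold with the signals as deposited (-0.01, limma adjusted p = 0.967) and after median centring (-0.28, limma adjusted p = 0.180). Akt1, a kinase that holds FoxO proteins out of the nucleus, was at -0.04 (limma adjusted p = 0.879; 0.37 with the signals as deposited).

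None of 27 tested genes for enzymes and carriers that modify or move FoxO proteins passed, with a median of -0.02 (limma; 3 higher and 2 lower had an unadjusted p under 0.05, as did 25.3% of all tested genes). The one of lowest p was Xpo1, the exportin that carries FoxO proteins out of the nucleus. Its normalised log2 level was 10.75 ± 0.08 in the 4 KO samples and 10.35 ± 0.13 in the 3 WT samples (SD), a difference of 0.40 without overlap (limma adjusted p = 0.0546). Xpo1 passed in 5 of 12 alternatives, among them the signals as deposited (0.84, limma adjusted p = 0.0118) and median centring (0.57, limma adjusted p = 0.0276), and in none of the 7 fits without 1 sample.

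Among 13 other growth arrest targets of FoxO, Cdkn1a rose and none fell, with a median of -0.23, or 0.08 with the signals as deposited. The list mixes inhibitor genes with the cyclin genes Ccnd1 and Ccnd2 and the kinase gene Plk1, so its median is not a measure of FoxO activity. Cdkn1a encodes the cyclin-dependent kinase inhibitor p21, which p53 also induces, and its normalised log2 level was 8.87 ± 0.38 in the 4 KO samples and 7.20 ± 0.40 in the 3 WT samples (SD). The difference was 1.67 ± 0.24 (SE) log2 units (limma adjusted p = 0.0183), and it passed in 6 of 7 fits without 1 sample, the exception being the fit without KO 7 (limma adjusted p = 0.0543). Cdkn1b, the inhibitor p27 and a classical FoxO target, was at -0.59 ± 0.15 (SE) without overlap between groups (limma adjusted p = 0.0584). With its probe sets averaged Cdkn1b was at -0.41 (limma adjusted p = 0.193), and with the signals as deposited at -0.19 (limma adjusted p = 0.537). These inhibitors of the same family thus lay on opposite sides of 0. Ccng1, the relative of Ccng2 and a p53 target, was at -0.07 (limma adjusted p = 0.710; 0.34 with the signals as deposited). None of the 4 tested relatives and partners of the members passed (limma; 0 had an unadjusted p under 0.05, against 25.3% of all tested genes), and the one of lowest p was the cyclin I gene Ccni at -0.20 (limma adjusted p = 0.605; 0.18 with the signals as deposited).

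Autophagy targets of FoxO had the most falls of the 9 lists, 4 of 13 with none higher and a median of -0.32, or 0.11 with the signals as deposited. Ulk1, the kinase that starts autophagy, was at -0.61 ± 0.09 (SE) log2 units (limma adjusted p = 0.0213). Pink1, a kinase that marks damaged mitochondria, was at -0.45 ± 0.10 (SE). The membrane-linked ATG8 family genes Gabarapl1 and Map1lc3b were at -0.39 and -0.38, with Gabarapl1 at 0.01 with the signals as deposited. Each of the 4 had normalised KO values below all WT values, as genes picked by the same fit tend to have. Without overlap, 12.7% of all tested genes were lower. In the deposited signals the groups overlapped for each of the 4, with Ulk1 at 854.9 to 1000.5 in KO and 881 to 1180.7 in WT. Ulk1 passed in 4 of the 7 fits without 1 sample, and Pink1, Gabarapl1 and Map1lc3b in none. With the signals as deposited none of the 4 passed, with Ulk1 at -0.17, Pink1 at -0.02 and Map1lc3b at -0.03. After median centring Ulk1 passed (limma adjusted p = 0.0322), while Pink1, Gabarapl1 and Map1lc3b did not (limma adjusted p = 0.121, 0.133 and 0.111). With the probe sets of a gene averaged, Gabarapl1 and Map1lc3b did not pass (limma adjusted p = 0.0949 and 0.0984).

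Other target groups held 1 fall each or none. The lists do not record whether FoxO factors raise or lower a gene, so these falls are no measure of FoxO activity. Of 9 stress and antioxidant targets Txnip fell, an inhibitor of thioredoxin and of glucose uptake, at -0.96 ± 0.12 (SE) log2 units (limma adjusted p = 0.0117), while the median of the list was 0.07. Of 5 metabolic targets Trib3 fell, a pseudokinase that can bind AKT, at -1.06 ± 0.12 (SE) (limma adjusted p = 0.0111), with a list median of -0.28, or -0.09 with the signals as deposited. Both passed in all 7 fits without 1 sample, and with the signals as deposited Trib3 passed and Txnip did not (-0.57, limma adjusted p = 0.0731). None of 3 cell death targets passed (limma; 0 with an unadjusted p under 0.05; median -0.09), with the BIM gene Bcl2l11 at 0.19 (limma adjusted p = 0.461; 0.59 as deposited and 0.07 without KO 6). None of 4 lymphoid homing and maturation targets passed (limma; 0 with an unadjusted p under 0.05; median -0.25), with the CXCL12 receptor gene Cxcr4 at -0.46 and overlapping groups (limma adjusted p = 0.204; -0.03 as deposited, and -0.30 without WT 7).

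**Figure D4:**
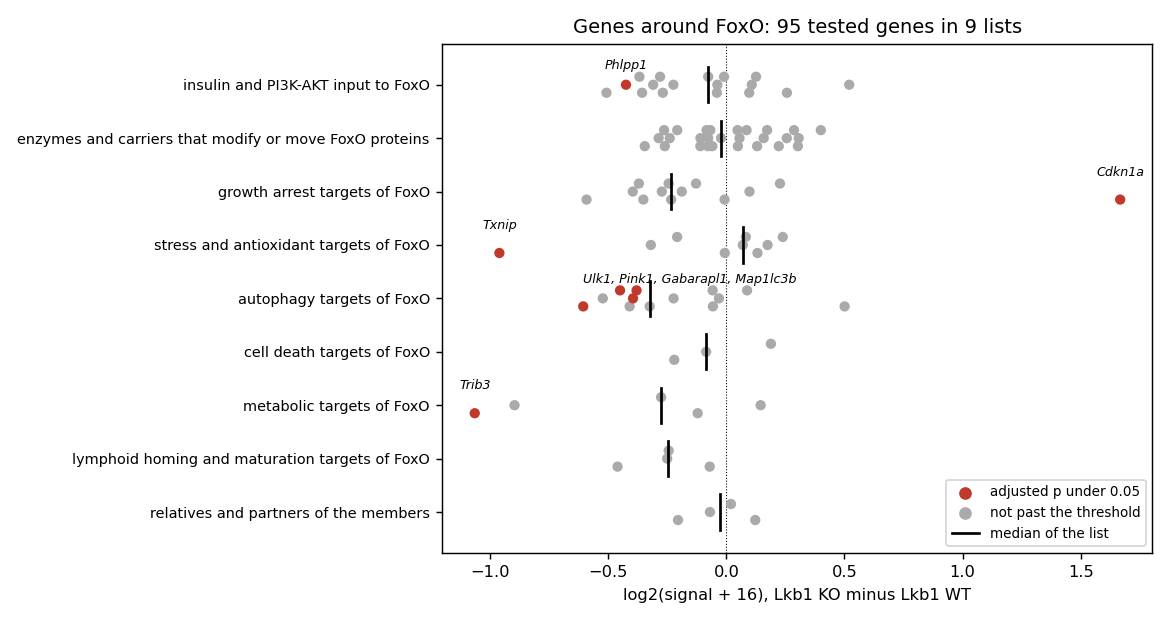
Log2 differences, Lkb1 KO minus Lkb1 WT, of the 95 tested genes in 9 lists around FoxO, with the members left out. Red points passed the adjusted threshold of 0.05, grey points did not, and a black bar is the median of a list, which on this quantile-normalised scale is lowest for the autophagy targets at -0.32. With the signals as deposited the metabolic, lymphoid and growth arrest medians lie lower, at -0.09, 0.00 and 0.08, than the 0.11 of the autophagy targets.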

How the data were processed

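RNA from 7 samples of sorted LSK cells was measured on 7 arrays. The deposited table holds 1 linear signal intensity per probe set and array, made with MAS5 per the submitters' processing notes. No source used here gives its settings. Of 22690 probe sets 64 were controls, and 20393 had 1 gene symbol, 691 several and 1542 none in the platform annotation. This is fewer than the array named in the labels holds. No detection calls were used.

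Intensities of the 22626 non-control probe sets were quantile-normalised and taken as log2(signal + 16). Probe sets above the 40th percentile of mean log2 value entered, with the brightest probe set per gene (8077 genes). The difference KO minus WT was fitted in R 4.3.3 with limma 3.58.1 (lmFit and eBayes on genotype alone, leaving 5 residual degrees of freedom). P-values were adjusted over all genes by Benjamini-Hochberg, with a threshold of 0.05. For single probe sets the exact permutation test was two-sided, over 35 arrangements. The number of arrays limits the precision. The fit was tested on simulated data.

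The members and lists were chosen with earlier results of these data known. Named genes are all members, from each list the genes past the threshold up to 4 by lowest p or else the 1 of lowest p, Stk11, Foxo6, Akt1, Ccng1, Sesn2, Cdkn1b, the markers, and the 5 genes most correlated with the member of lowest p. Alternatives covered the scaling, pseudocount, filter, probe set rule, variance prior, weights per array, a block for replicate number, the Actb ratio and each sample left out.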

Additional observations from a re-analysis of the deposited data

Results flagged for a closer look

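In 4 of 41 probe sets and genes, 1 Lkb1 KO sample stood apart from the other 3 by Dixon's criterion (gap over range above its critical value for 4 samples), which chance reaches in about 1 group in 20. For Irs2 the gap over range was 0.936, with KO 6 at 5.04 on the normalised log2 scale and the other KO arrays at 4.21 to 4.26, all near background. For the Sesn1 probe set second in brightness it was 0.834, with KO 5 at 11.23 and the others at 10.95 to 11.00. For Pink1 it was 0.851, with KO 5 at 9.24 and the others at 9.07 to 9.09. For Ccni it was 0.884, with KO 7 at 11.06 and the others at 11.65 to 11.73.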

How the results depend on the processing

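At the settings used, 0 members were higher and 3 lower, 1 pathway gene higher and 7 lower, and 199 genes higher and 238 lower. With the signals as deposited, 1 member was higher and 0 lower, 10 pathway genes higher and 1 lower, and 1372 genes higher and 43 lower. Foxo1 (0.0437), Foxo3 (0.0947), Sesn1 (0.0528), Sesn3 (0.12), Gabarapl1 (0.00617), Ccni (0.18), Akt1 (0.37), Ccng1 (0.34), Tm9sf3 (0.24), Supt20 (0.0377) and Pnn (0.15) then lay above 0. Median centring gave 6 pathway genes higher and 3 lower and 545 genes higher, with Akt1 at 0.10 and Ccng1 at 0.0753. A pseudocount of 64 gave 4 members lower (Sesn1 added), 2 pathway genes higher, and 322 genes higher and 372 lower. Without the filter, where more genes were tested, 1 member and 2 pathway genes were lower, and 18 genes higher and 38 lower. A filter at the 60th percentile gave 4 members lower (Sesn1 added), 2 pathway genes and 356 genes higher. A trended robust prior gave 5 members lower (Sesn1 and Foxo3 added), 2 pathway genes higher and 11 lower, and 461 genes higher and 456 lower. Averaging the probe sets of a gene gave 5 pathway genes lower and put Ccng1 at 0.15 and Tm9sf3 at 0.0152. With the Actb ratio as a covariate, which separates the groups completely, 0 members, 0 pathway genes and 0 genes passed in limma (713 genes with an unadjusted p under 0.05), and Ccng1 was at 0.0841. A pseudocount of 1 and array weights left Bcl6 short of the threshold (adjusted p = 0.0599 and 0.0587). Other causes were not tested.

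With the replicate number as a block over the 6 samples numbered 5 to 7, 0 members, 0 pathway genes in either direction, 0 genes higher and 1 gene lower passed in limma (1693 genes with an unadjusted p under 0.05), with KO 4 left out. Cited2 was at -0.67 in that fit (adjusted p = 0.107). Deviations of same-numbered samples correlated at 0.0291, 0.0985 and 0.0502. Whether same-numbered samples share more than a number was not tested. By value, each sample with a shared number correlated best with the sample of that number, except WT 5, which did so with KO 4 (0.0656). That value exceeds the same-numbered 0.0291 and 0.0502, and all of these correlations are small.

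Without each sample in turn, members lower ranged from 0 to 3, pathway genes higher from 0 to 1 and lower from 2 to 4, and genes higher from 8 to 74 and lower from 34 to 113. Akt1 ranged from -0.12 to 0.0464, Sesn2 from -0.0579 to 0.32 and Ccni from -0.39 to 0.0174. Signal near background limits Irs2 and Foxo4.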
